A study of Mus musculus with 2 samples.

Results

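Periocular mesenchyme cells with RNA of *Tfap2b* and genes that accompany it made up 1411 of 11893 cells kept from eyecups of mouse embryos at e13.5 (embryonic day, as in the labels), and 1411 of the 3535 mesenchyme cells among them. A cell entered this Tfap2b class when it had 1 or more unique molecular identifiers (UMIs, each counting 1 captured RNA molecule) in at least 4 of 6 mesenchyme genes (*Col1a1*, *Col1a2*, *Col3a1*, *Pdgfra*, *Prrx1* and *Twist1*) and in at least 2 of 4 class genes (*Tfap2b*, *Matn4*, *Ddit4l* and *Tmem132c*). It also had to have a UMI in fewer than 2 of *Aldh1a2*, *Six2*, *Foxf2* and *Pgf*, and in fewer than 2 of *Meox1*, *Scx*, *Msc* and *Penk*. The cells were thus chosen by measured values of these 18 genes, so the levels of these genes are a description of the rule, and every comparison of the class with other mesenchyme is a description without a test. Barcodes with under 200 detected genes or over 15% mitochondrial UMIs had been left out.

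The study asked how loss of *Myrf*, a transcription factor gene active in the retinal pigment epithelium (RPE), changes the cells of the developing eye. The e13.5 data described here are 2 single-cell libraries, each from 3 pooled samples, and later time points of the study were not analysed here. The control library came from *Myrf* fl/fl embryos, which carry the floxed allele on both chromosomes without a Cre transgene, and the mutant library from Rx>cre *Myrf* fl/fl embryos, in which Cre under the *Rx* promoter acts in the eye field that gives rise to retina and RPE. Cornea, lens and optic nerve had been removed before the eyecups were dissociated with papain, so the mesenchyme here was that left on the eyecup, and the pooled embryos of a library cannot be told apart by label.

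Periocular mesenchyme is the loose connective tissue around the embryonic optic cup. It comes from the cranial neural crest and, in part, from head mesoderm, and it gives rise to the sclera, the stroma and endothelium of the cornea, the iris and ciliary body stroma, the outflow tissue of the chamber angle, the connective tissue of the eye muscles and the dermis of the eyelids. *Tfap2b* encodes AP-2 beta, a transcription factor of neural crest derivatives that is needed for normal development of the anterior segment of the eye.

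AP-2 proteins bind the palindromic consensus GCCNNNGGC, which reads the same on both strands, and the window from 250 bases before to 50 bases after the RefSeq start site was searched for it because *Tfap2b* defines the class. Of the 16 genes with the highest ratio of the class to other mesenchyme described further on, 11 had a promoter in the RefSeq table, and 5 of these 11 promoters (45.5%) held the motif, against 5450 of all 32851 promoters (16.6%). Those with it were *Aqp1*, *Cpxm2*, *Nbl1*, *Scube2* and *Sema3c*, and those without it *Adra2a*, *Apod*, *D030045P18Rik*, *Dpt*, *Grik3* and *a*. A match is a string of letters and not a measured binding site. All fixed letters of the motif are G or C, and the GC content of these 11 promoters was not compared with that of all promoters. The difference between the shares was not tested. Shown from RefSeq on build GRCm38.p6, 5′ to 3′ on the strand of the gene with the motif in capitals, are the 250 bases upstream of *Cpxm2* (chr7:132154742-132154991, minus strand), the gene with the largest ratio, of *Nbl1* (chr4:139092971-139093220, minus strand), which held 2 matches, of *Scube2* (chr7:109865680-109865929, minus strand), and of *Dpt* (chr1:164796413-164796662, plus strand) as a leading gene without a match.
Cpxm2: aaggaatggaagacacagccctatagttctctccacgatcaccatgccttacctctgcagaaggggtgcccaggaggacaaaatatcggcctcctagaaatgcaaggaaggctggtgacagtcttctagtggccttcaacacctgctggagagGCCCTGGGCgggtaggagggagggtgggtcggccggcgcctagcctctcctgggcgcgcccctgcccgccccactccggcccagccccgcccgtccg
Nbl1: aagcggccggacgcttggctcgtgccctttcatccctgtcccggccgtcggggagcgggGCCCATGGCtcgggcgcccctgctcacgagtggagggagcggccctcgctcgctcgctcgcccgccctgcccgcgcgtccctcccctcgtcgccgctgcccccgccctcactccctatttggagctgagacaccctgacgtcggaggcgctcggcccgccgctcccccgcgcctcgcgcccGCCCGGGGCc
Scube2: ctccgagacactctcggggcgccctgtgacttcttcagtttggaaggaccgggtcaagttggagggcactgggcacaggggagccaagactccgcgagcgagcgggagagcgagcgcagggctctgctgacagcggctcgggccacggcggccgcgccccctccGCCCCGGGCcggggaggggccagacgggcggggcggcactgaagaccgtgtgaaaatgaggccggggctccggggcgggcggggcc
Dpt: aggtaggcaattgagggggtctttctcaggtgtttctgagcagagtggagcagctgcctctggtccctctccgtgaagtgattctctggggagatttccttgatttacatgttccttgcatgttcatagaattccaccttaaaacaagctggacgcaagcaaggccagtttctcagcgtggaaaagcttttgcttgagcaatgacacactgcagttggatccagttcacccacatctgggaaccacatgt

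The libraries held 63483835 UMIs in 6039 barcodes (control) and 75228861 UMIs in 6754 barcodes (mutant), at a median of 10083 and 10638 UMIs per barcode, and 5519 and 6374 barcodes were kept. Of these, 1541 control and 1994 mutant cells passed the mesenchyme gate. Cells of the Tfap2b class were deep, with a median of 14130 UMIs and 3691.5 genes in the control and of 13432 UMIs and 3557 genes in the mutant, against 13207 and 12123 UMIs in the other mesenchyme. Scrublet, which marks barcodes that look like mixtures of cells, marked 12 control cells (1.96%) and 17 mutant cells (2.13%) of the class, and these were kept in the main values. Of the 72 barcode sequences found in both libraries, none of the control cells and 2 of the mutant cells of the class carried one. Each genotype was 1 library, so no difference between genotypes has a replicate check and none was tested. All intervals given are 95% intervals for counting error only.

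At full depth the class took an almost equal share of the mesenchyme in both libraries. It was 612 of 1541 cells in the control (39.7%, Clopper-Pearson interval 37.3 to 42.2) and 799 of 1994 in the mutant (40.1%, 37.9 to 42.3). The difference of mutant minus control was 0.356 percentage points, with a Newcombe interval from -2.90 to 3.60. With the rule applied to cells thinned to 3000 UMIs, the class was 176 of 687 control and 263 of 870 mutant mesenchyme cells. That share was higher in the mutant, and the part of depth in the shares was not tested. Of all kept cells the class was 11.1% in the control and 12.5% in the mutant, a difference of 1.45 points (0.282 to 2.60) that moved with the share of mesenchyme as a whole, which was 27.9% and 31.3% of kept cells.

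**Figure D1:**
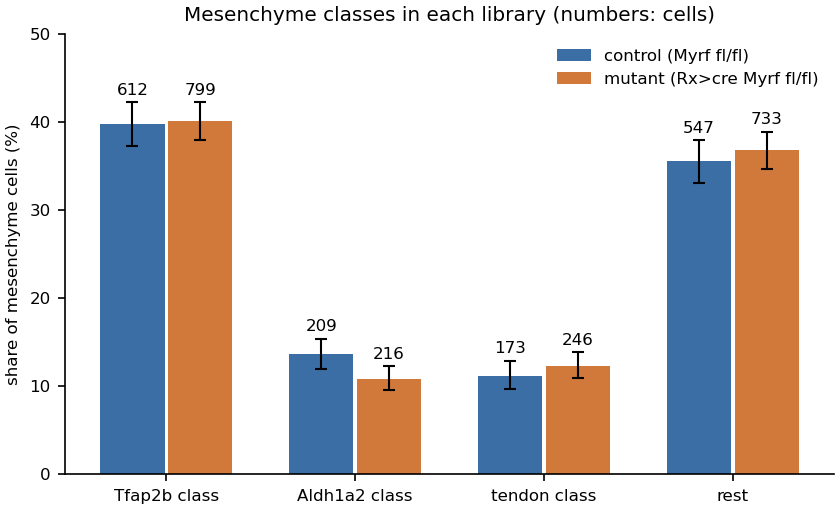
Share of mesenchyme cells (y axis, percent) in each of 4 classes (x axis), for the control library (blue) and the mutant library (orange), with exact 95% binomial intervals as bars and the number of cells above each bar. The Tfap2b class, at full depth, stands at 39.7% and 40.1%, and is the class with the highest share in both libraries.

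The almost equal share at full depth was an average over embryos of both sexes. Sex was called per cell by *Xist* without Y-linked transcripts or the reverse. Among male mesenchyme cells the class was 254 of 535 (47.5%) in the control and 497 of 1236 (40.2%) in the mutant, a difference of -7.27 points (-12.3 to -2.24). Among female cells it was 85 of 256 (33.2%) and 89 of 217 (41.0%), a difference of 7.81 points (-0.899 to 16.4). Many mesenchyme cells, 750 in the control and 541 in the mutant, had no sex call. Among these the class was 273 (36.4%) and 213 (39.4%). The point estimates for the sexes thus lay on opposite sides of 0, and since each library pools 3 samples, sex and embryo cannot be told apart in them.

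The rest of the mesenchyme served as the comparison, and had been split by the same kind of rule. An Aldh1a2 class (2 or more of *Aldh1a2*, *Six2*, *Foxf2* and *Pgf*) held 209 control and 216 mutant cells. A tendon class (2 or more of *Meox1*, *Scx*, *Msc* and *Penk*, genes of tendon and muscle connective tissue) held 173 and 246. Both also asked for fewer than 2 genes of each other set. The remaining 547 and 733 cells met none of these rules. Among them were 183 and 261 cells with 2 or more class genes, kept out of the Tfap2b class by genes of the other sets. Together these other mesenchyme cells numbered 929 in the control and 1195 in the mutant.

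The genes of the rule had the following levels, in CPM, the UMIs of the gene scaled to an equal total of UMIs in the summed cells. *Tfap2b* (chr1:19208914-19238576, plus strand, positions here and below from GENCODE vM21 on GRCm38) stood at 376 CPM in the control and 365 CPM in the mutant cells of the class, against 70.2 and 58.9 CPM in other mesenchyme. *Matn4* (chr2:164389393-164405160, minus strand), which encodes the matrix adaptor protein matrilin 4, stood at 93.0 and 119 CPM against 11.7 and 16.2 CPM. *Ddit4l*, whose product restrains mTORC1 signalling, stood at 158 and 165 CPM against 34.9 and 41.7 CPM, and *Tmem132c*, which encodes a membrane protein, at 135 and 138 CPM against 37.1 and 36.8 CPM. Of the class, 173 control cells (28.3%) and 247 mutant cells (30.9%) had a UMI of all 4 class genes, and *Tfap2b* itself was detected in 89.1% and 89.5% of cells. The pair of *Ddit4l* and *Tmem132c* without *Tfap2b* or *Matn4* accounted for 34 control (5.56%) and 31 mutant cells (3.88%).

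The 6 mesenchyme genes did not have one pattern. *Twist1*, a basic helix-loop-helix factor of cranial mesenchyme, was higher in the class, at 926 and 994 CPM against 294 and 289 CPM in other mesenchyme, although the gate asked the same of all cells. *Prrx1*, a homeobox gene of mesenchyme, stood at 235 and 262 CPM against 166 and 167 CPM. *Col3a1*, the gene of fibrillar collagen III, was lower, at 265 and 250 CPM against 532 and 452 CPM, while *Col1a1*, *Col1a2* and *Pdgfra* lay within 1.18-fold of the other mesenchyme in both libraries.

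*Twist2* was named as a marker of these cells but was not part of the rule. It encodes a relative of Twist1 that acts in dermal and skeletal progenitors, and lies at chr1:91801461-91848028 on the plus strand. It stood at 168 CPM (control) and 172 CPM (mutant) in the class and at 48.9 and 44.9 CPM in other mesenchyme, a ratio of 3.44 and 3.84 (log2 1.78, interval 1.65 to 1.92, and 1.94, interval 1.82 to 2.07). In cells thinned to 3000 UMIs each, 38.2% of control and 37.0% of mutant class cells had a *Twist2* UMI, against 10.8% and 11.2% of other mesenchyme. Retinal progenitor cells, which should lack it, had 1.16% and 0.308%, at a median depth before thinning of 13495 and 12173 UMIs, the share taken as background. Unthinned, the shares were 74.7% and 74.6% in the class, 42.4% and 37.2% in other mesenchyme and 2.50% and 1.09% in retinal progenitor cells. *Twist2* was therefore higher in the cells that the rule chose. The other markers named for these cells, *Tfap2b*, *Matn4* and *Ddit4l*, are genes of the rule, so their presence was set by the choice of cells.

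Other cell types were represented in the class at low levels. The 10 retinal progenitor genes summed to 254 CPM in the control and 194 CPM in the mutant class, against 5280 CPM in control retinal progenitor cells. The 10 pericyte genes summed to 37.6 and 32.6 CPM, below the 79.8 and 61.2 CPM of other mesenchyme, with 5 of 8 measured members past 2-fold lower, among them *Rgs5* with 3 UMIs in each library of the class. *Myod1*, the muscle determination gene, had no UMI in either, and *Myf5* had 1 UMI in each. The 14 Hox genes examined had no UMI in either library of the class; Hox genes are as a rule silent in the most anterior crest. The lists of RPE, macrophage and red blood cell genes differed between libraries and are given with the comparison of the libraries. Red blood cell genes were not low, at 2540 CPM (control) and 12700 CPM (mutant) in the class, against 2440 and 10400 CPM in other mesenchyme.

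Against other mesenchyme, 109 of 11540 genes (0.945%) were past 2-fold higher in the class in both libraries and 250 (2.17%) past 2-fold lower, the genes of the rule left out and a minimum of 100 UMIs asked of each gene. In single libraries 164 (control) and 172 (mutant) genes were past 2-fold higher and 356 and 381 lower, and 9 genes were past 2-fold in opposite directions in the libraries. The median log2 ratio over all genes was -0.045 in the control and -0.038 in the mutant. Because every gene of these cells moved with the choice of the cells, these counts describe the class and test nothing.

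**Figure D2:**
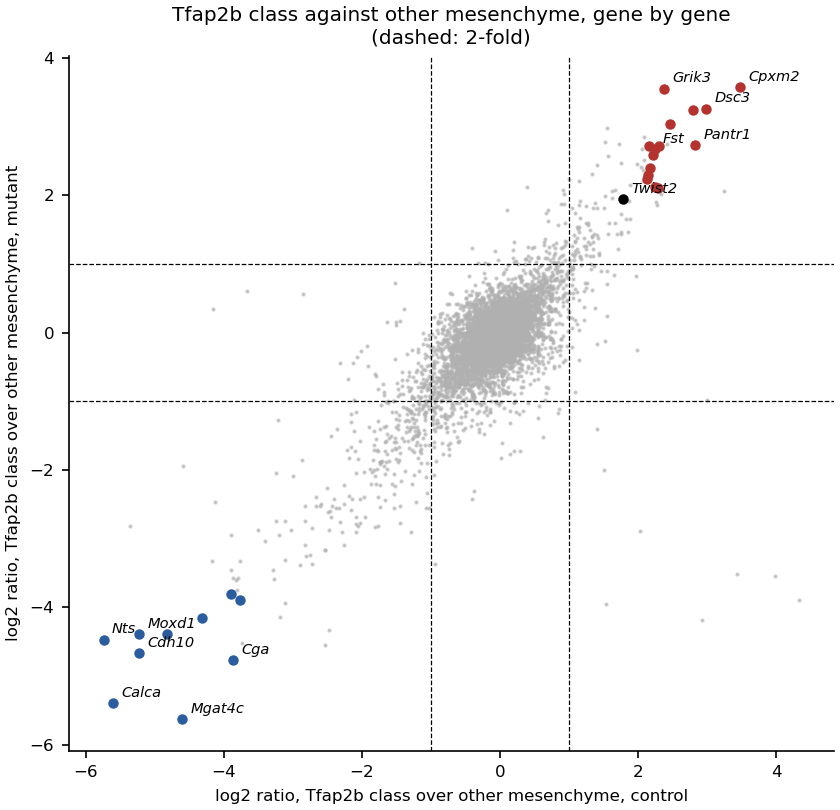
Each point is a gene, with the log2 ratio of the Tfap2b class over other mesenchyme in the control library on the x axis and in the mutant library on the y axis, dashed lines marking 2-fold. The 15 marked of the 16 leading genes (red) and *Twist2* (black) lie at the upper right and the 10 lowest genes (blue) at the lower left, while the few points at the lower right and the upper left are genes with opposite directions in the libraries.

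The gene with the highest ratio was *Cpxm2* (chr7:132032687-132154739, minus strand), which encodes a secreted carboxypeptidase-like protein. It was at 24.7 and 25.3 CPM in the class and at 2.15 and 2.08 CPM in other mesenchyme, 11.2-fold and 11.8-fold higher. *Dsc3*, a desmosomal cadherin gene best known from epithelia, was at 24.1 and 25.7 CPM against 2.96 and 2.64 CPM. *Dpt*, the gene of the collagen-binding matrix protein dermatopontin, was lower in level but had a similar ratio, at 4.02 and 6.87 CPM against 0.519 and 0.674 CPM. In thinned cells, *Cpxm2* was detected in 8.52% of control and 6.68% of mutant class cells, against 0.661% and 0.677% of other mesenchyme and 0.0681% and 0% of retinal progenitor cells. Before thinning these shares were 25.8% and 24.2%, 2.37% and 2.26%, and 0.256% and 0%, so that most cells of the class had no *Cpxm2* UMI at either depth.

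*Fst* (chr13:114452290-114458951, minus strand) encodes follistatin, which binds and blocks activins, and stood at 402 and 448 CPM in the class against 85.2 and 70.4 CPM in other mesenchyme (log2 ratio 2.24, interval 2.14 to 2.34, and 2.67, 2.58 to 2.76). *Nbl1* (chr4:139082284-139092993, minus strand) encodes a secreted antagonist of bone morphogenetic proteins (BMPs) of the DAN family, and stood at 301 and 309 CPM against 66.7 and 58.6 CPM (log2 ratio 2.17 and 2.40). Both were also the most frequently detected of the leading genes, *Fst* in 51.8% and 57.1% and *Nbl1* in 46.6% and 45.2% of thinned class cells, against 12.1% to 14.3% of other mesenchyme. Retinal progenitor cells had *Fst* UMIs in 5.31% and 5.86% of thinned cells and *Nbl1* UMIs in 0.886% and 0.740%. *Sema3c* (chr5:17574281-17730268, plus strand), a secreted semaphorin that guides axons and crest cells, stood at 61.9 and 61.4 CPM against 14.1 and 13.1 CPM. The nonagouti gene *a*, whose protein blocks melanocortin receptors and thereby switches pigment type in hair, stood at 70.9 and 86.7 CPM against 14.5 CPM in control other mesenchyme, 4.89-fold and 4.33-fold higher.

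The other leading genes were of low or middle level. *Scube2*, whose secreted product helps release hedgehog proteins, stood at 25.2 and 31.0 CPM against 5.41 and 5.09 CPM, and *Pantr1*, a long noncoding RNA gene, at 18.9 and 25.9 CPM against 2.59 and 3.86 CPM. *Apod*, a lipocalin gene, reached 12.2 and 14.4 CPM, and *Aqp1*, a water channel gene, 9.12 and 8.35 CPM. *Adra2a*, an adrenergic receptor gene, was at 6.84 and 9.22 CPM, and *Grik3*, a kainate receptor subunit gene, at 5.64 and 5.66 CPM. The noncoding or uncharacterised loci *D030045P18Rik* and *B230334C09Rik* were at 6.44 to 9.48 CPM. All 16 were at least 4.33-fold higher in the class in each library.

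**Figure D3:**
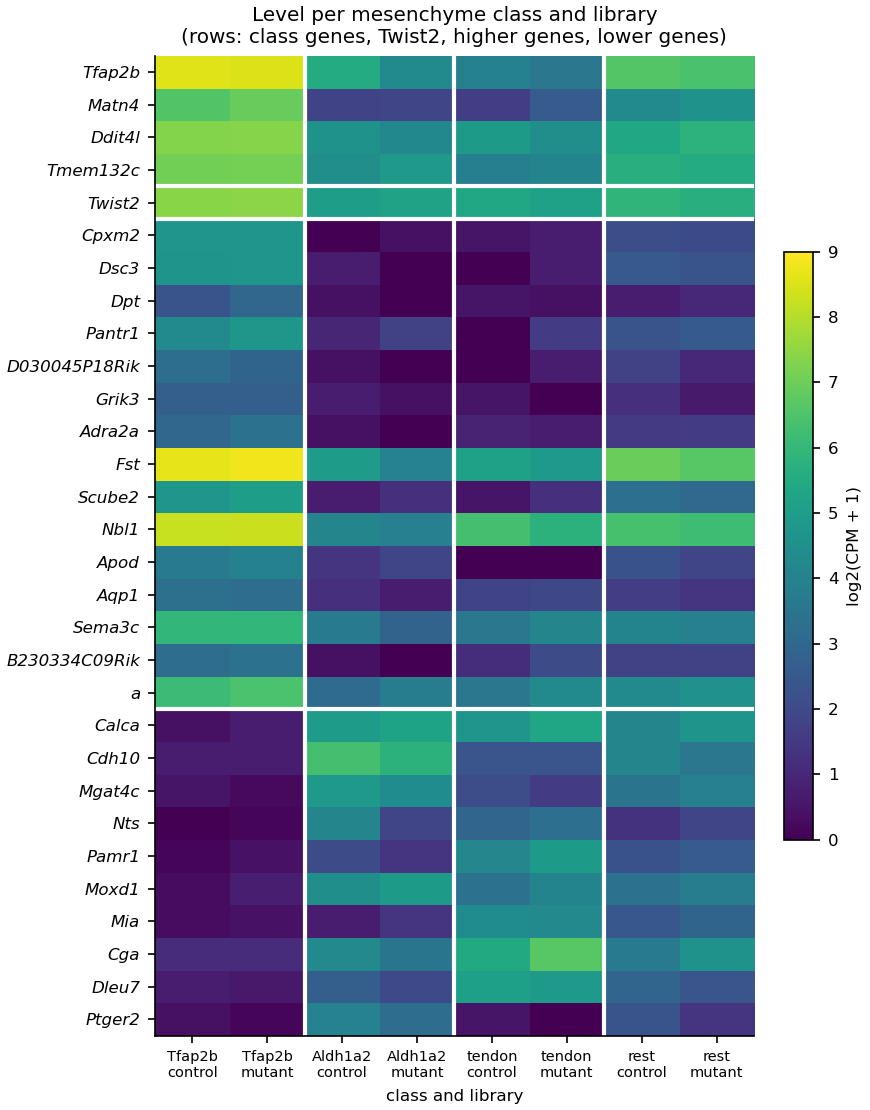
Level of each gene (rows) as log2(CPM + 1), by colour, in the 4 mesenchyme classes of each library (columns): the 4 class genes, *Twist2*, 15 of the 16 genes highest and the 10 genes lowest in the Tfap2b class against other mesenchyme. The leading genes are brightest in the first pair of columns, though those of low level are dim there too. They are mostly darkest in the Aldh1a2 and tendon classes, with the unclassed rest between, and the lowest genes show the reverse in different classes.

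The genes that stood lowest were close to absent from the class, and other mesenchyme held them in different places. Folds in this paragraph are ratios of CPM without the added UMI that the log2 ratios carry. *Calca*, the gene of calcitonin and its related neuropeptide, had 3 control and 7 mutant UMIs in the class, against 283 and 479 in other mesenchyme, a control ratio of 64.4-fold lower (21.8 to 314). *Mgat4c*, a glycosyltransferase gene, had 4 and 2 UMIs against 176 and 210, 74.0-fold lower in the mutant (20.2 to 615). *Cdh10*, a cadherin gene at its highest in the Aldh1a2 class, had 6 and 7 UMIs against 384 and 289. *Moxd1* had 2 and 8 UMIs, with a control ratio of 56.0-fold lower (15.3 to 466). *Nts*, the neurotensin gene, had no UMI in the control class against 77 in other mesenchyme, at least 17.5-fold lower taken against a floor of 3 UMIs over the class, and 1 UMI in the mutant, 43.7-fold lower (7.55 to 1750). *Cga*, the gene of the alpha subunit of glycoprotein hormones and at its highest in the tendon class, had 11 and 14 UMIs (1.19 and 1.22 CPM) against 18.9 and 35.5 CPM. *Pamr1*, *Mia*, *Dleu7* and *Ptger2* were the remaining 4 of the 10 lowest, with 1 to 6 UMIs in the class.

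Lists of genes were described by the number of members past 2-fold in both libraries, among members with 50 or more UMIs. At that minimum 1.13% of 12599 genes were past 2-fold higher and 2.67% past 2-fold lower, and the median log2 ratio of all genes was -0.045 (control) and -0.040 (mutant).

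Of 63 measured transcription factors known from periocular and cranial mesenchyme, 5 were past 2-fold higher in the class and 10 past 2-fold lower, with median log2 ratios of -0.31 and -0.18. The higher ones included *Twist2*, *Msx1*, *Tfap2a* and *Pitx1*. *Msx1*, a homeobox gene of BMP-responsive crest, had log2 ratios of 1.72 and 2.75, with 13.1 CPM against 1.90 CPM in the mutant, and *Tfap2a*, the gene of the related AP-2 alpha, at 3.91 and 3.13 CPM against 1.04 and 1.10 CPM, well below *Tfap2b*. Those lower included *Tbx18* at 2.71 and 3.13 CPM against 26.8 and 21.4 CPM, and *Tbx15*, *Ebf2*, *Ebf3*, *Eya2*, *Foxd1*, *Foxp2*, *Irx1* and *Osr2*.

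The Wnt pathway had the largest number of higher members of any list. Of 37 measured, 11 were past 2-fold higher and 4 past 2-fold lower, and the median log2 ratio was 0.44 in the control and 0.46 in the mutant. The higher members include common feedback targets and inhibitors. *Axin2*, a scaffold of the destruction complex and a widely used Wnt target, stood at 32.7 and 31.6 CPM against 12.8 and 8.89 CPM. *Nkd1* and *Nkd2*, which encode antagonists of Dishevelled, stood at 72.2 and 75.4 CPM against 34.5 and 28.1 CPM, and at 38.4 and 39.8 CPM against 12.2 and 13.2 CPM. *Dkk2*, whose secreted product binds the Lrp5 and Lrp6 coreceptors, was the most abundant member, at 736 and 752 CPM against 305 and 300 CPM. *Wif1*, which encodes a secreted Wnt-binding inhibitor, stood at 30.4 and 34.7 CPM against 11.4 and 9.87 CPM, and *Apcdd1*, another membrane inhibitor gene, at 2.06 and 2.26 CPM against 0.889 and 0.981 CPM.

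Ligands and receptors of the same pathway were among the higher members as well. *Rspo1*, the gene of an R-spondin that amplifies Wnt signals, was at 172 and 155 CPM against 83.6 and 69.8 CPM, and its receptor gene *Lgr4* at 81.1 and 67.5 CPM against 34.8 and 28.3 CPM. *Wnt4* was at 12.4 and 11.6 CPM against 5.56 and 4.17 CPM, *Wnt2b* at 2.82 and 2.09 CPM, and the receptor gene *Fzd10* at 12.6 and 10.5 CPM against 4.37 and 2.94 CPM. The 4 lower members were also ligands and receptors: *Rspo2*, *Lgr5*, *Fzd4* and *Fzd8*, the last at 3.47 and 3.57 CPM against 19.2 and 21.1 CPM. R-spondin, Lgr and Frizzled genes thus stood on both sides, with *Rspo1*, *Lgr4* and *Fzd10* higher and their relatives lower.

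The TGF beta and BMP list was led by *Fst* and *Nbl1*, the only higher members of 39 measured, and both are antagonists. The 4 lower members were *Grem1*, the gene of the antagonist gremlin, at 4.45 and 5.66 CPM against 43.8 and 69.0 CPM, *Bmp4* at 17.6 and 16.5 CPM against 43.3 and 37.0 CPM, *Gdf5* and *Bmpr1b*. *Id3*, a common BMP target and the most abundant member, stood at 994 and 967 CPM against 1150 and 936 CPM. In the hedgehog list, 0 of 10 members were past 2-fold either way. In the list of fibroblast and epidermal growth factor family signals, 0 of 16 were higher and 4 lower (*Etv4*, *Spry2*, *Fgf9* and *Fgf18*), with medians of -0.71 and -0.87, and *Etv4* and *Spry2* are known targets of fibroblast growth factor signals.

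Glycoprotein and proteoglycan genes of the matrix that passed 2-fold were mainly lower in the class. The whole list of these genes differed less from some of the mesenchyme than from the rest of it. In the control it summed to 3940 CPM in the class, 4550 in the Aldh1a2 class, 6850 in the tendon class and 5140 in the unclassed cells. In the mutant these sums were 3910, 4520, 6670 and 5120 CPM. Of 48 measured glycoproteins and proteoglycans, 2 were past 2-fold higher (*Egfl6* and *Podn*) and 14 past 2-fold lower, with medians of -0.43 and -0.32. *Fn1*, the fibronectin gene, stood at 274 and 252 CPM against 777 and 819 CPM, and *Vcan*, the gene of the proteoglycan versican, at 49.9 and 38.1 CPM against 165 and 141 CPM. *Tnc*, the tenascin C gene, had the lowest ratio, at 2.93 and 2.52 CPM against 29.6 and 28.4 CPM, and *Has2*, whose enzyme makes hyaluronan, was at 10.4 and 9.31 CPM against 56.0 and 50.7 CPM. *Lum*, which encodes the corneal and scleral proteoglycan lumican, was of like level in both, at 595 and 656 CPM against 582 and 715 CPM. Of 27 collagens, *Col6a1*, *Col6a3* and *Col8a1* were past 2-fold higher and *Col9a2* lower.

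Genes of retinoic acid handling, which carries a signal from the retina to this mesenchyme, had 2 of 18 members past 2-fold higher. These were *Crabp1*, which encodes a cytosolic binding protein of retinoic acid, at 323 and 276 CPM against 136 and 127 CPM, and *Cyp26b1*, the gene of a degrading enzyme, at 7.27 and 5.57 CPM against 2.89 and 2.76 CPM. *Cyp1b1*, a cytochrome gene mutated in congenital glaucoma, was lower, at 1.09 and 0.870 CPM against 6.60 and 6.93 CPM. Among signals to vessels and other cells, *Cxcl14*, *Hgf* and *Angpt1* were lower and none of 17 was higher, *Cxcl14* standing at 3.04 and 4.44 CPM against 56.8 and 45.4 CPM. *Epha3*, an ephrin receptor gene, stood at 9.23 and 7.13 CPM against 80.4 and 71.7 CPM, the lowest ratio among 34 axon guidance genes, in which *Sema3c* was the only higher member and *Efnb2*, *Nrp2* and *Plxna2* were lower too.

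Lists of the tissues that this mesenchyme forms did not point to one of them. Of 12 measured dermal genes, 3 were higher (*Crabp1*, *Dkk2* and *Dpt*) and 2 lower, of 11 cartilage and bone genes 2 were higher, *Runx2* among them, and 0 lower, and of 10 corneal stroma genes 2 were higher (*Chst5* and *Col6a3*) and 1 lower. Of 16 genes of the corneal endothelium and trabecular meshwork, 1 was higher (*Col8a1*) and 4 were lower (*Angptl7*, *Car3*, *Cyp1b1* and *Mgp*). Of 12 meningeal genes 0 were higher and 2 lower, *Foxd1* and *Crym*, the latter at 360 and 316 CPM against 1240 and 1250 CPM. Of 11 measured genes of tendon and eye muscle connective tissue 0 were higher and 4 lower (*Fmod*, *Mkx*, *Osr2* and *Tnc*). The rule kept cells with 2 or more of *Meox1*, *Scx*, *Msc* and *Penk* out of the class, so this count describes the choice of cells. The whole tendon list summed to 459 and 449 CPM in the class, against 427 and 452 CPM in other mesenchyme. *Runx2*, the master regulator gene of bone, was low in absolute terms, at 3.80 and 3.57 CPM against 1.41 and 0.613 CPM. Several genes stand in more than 1 list, so these counts overlap.

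Of 27 cadherins and other adhesion genes, *Cdh4* and *Itga8* were higher and *Cdh6*, *Cdh10*, *Pcdh17* and *Cadm2* lower, and of 14 insulin-like growth factor genes *Igfbp7* was lower. Of 13 p53 targets *Plk2* was lower, and of 22 hypoxia and glycolysis genes none passed 2-fold. Of 21 genes that respond to tissue dissociation, 0 were higher and 3 lower (*Atf3*, *Fos* and *Ier3*), with medians of -0.49 and -0.38.

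None of the 44 S phase genes and none of the 54 G2/M genes was past 2-fold. In thinned cells, 63.0% (59.0 to 66.8) of control and 58.9% (55.4 to 62.4) of mutant class cells had 5 or more UMIs of the S phase genes. These shares were 6.12 points (1.08 to 11.1) and 6.27 points (1.80 to 10.7) above those of other mesenchyme in the same library. For the G2/M genes the shares were 62.6% and 58.1%, and the differences from other mesenchyme were -2.91 (-7.84 to 1.99) and -4.85 points (-9.25 to -0.464). The summed level of the G2/M genes in thinned control cells was 4120 CPM in the class and 4130 CPM in other mesenchyme. In the mutant it was 4070 and 3730 CPM, so that there share and summed level differed in opposite directions. Between libraries, the S phase share of the class differed by -4.01 points (-9.10 to 1.15) and the G2/M share by -4.56 points (-9.67 to 0.607), mutant minus control.

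The number of class genes detected varied from cell to cell. As these are genes of the rule, the counts cannot show whether the class has a gap at its edge. Mesenchyme cells with 0, 1, 2, 3 and 4 of the class genes detected numbered 299, 447, 334, 272 and 189 in the control and 434, 500, 399, 387 and 274 in the mutant. Just inside the rule were 215 control and 239 mutant class cells with 2 class genes, and just outside it 157 and 191 cells with 1 class gene that met every other limit. A further 183 and 261 mesenchyme cells had 2 or more class genes but were kept out by genes of the other sets. Among cells that met the other limits, median depth was higher with more class genes detected, from 11354 UMIs with 0 and 12941 with 1 to 14925 with 4 in the control, and from 10958 and 12123 to 14377 in the mutant, and the part of depth in the count of class genes was not tested.

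Levels of genes outside the rule differed with the number of class genes detected. Among cells that met the other limits, *Twist2* stood at 58.9 and 56.0 CPM (control and mutant) with 1 class gene, 71.1 and 98.2 CPM with 2, 180 and 163 CPM with 3, and 264 and 249 CPM with 4, after 40.1 CPM in each library with 0. *Cpxm2* stood at 2.81 and 2.06 CPM just outside the rule and at 12.9 and 8.71 CPM just inside it, reaching 39.2 and 41.0 CPM with 4 class genes, after 2.11 and 3.27 CPM with 0. *Fst* stood at 82.3 and 70.3 CPM with 0, 164 and 156 CPM with 1, 276 and 301 CPM with 2 class genes and 503 and 598 CPM with 4. *Nbl1* stood at 97.3 and 84.9 CPM outside, 128 and 142 CPM with 2 and 479 and 450 CPM with 4. With 0 class genes *Nbl1* stood at 130 CPM (108 to 155) in the control, above its level with 1, and at 52.3 CPM in the mutant. For all 4 of these genes, cells with 2 class genes were nearer in level to those just outside the rule than to those with 4, in both libraries.

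**Figure D4:**
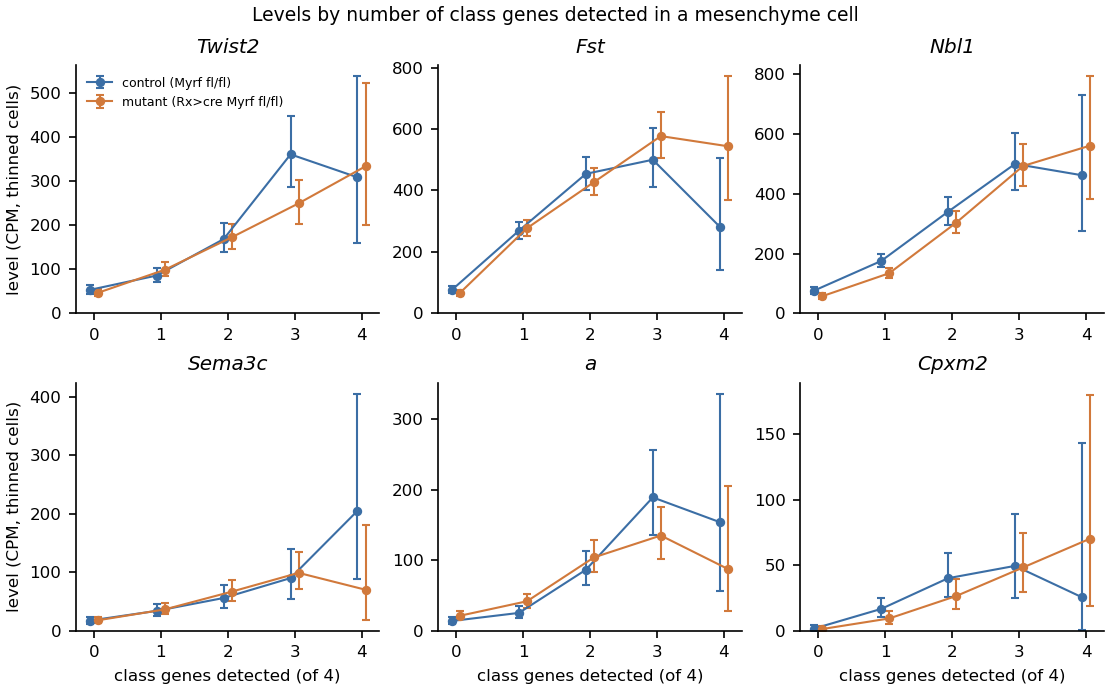
Level in CPM (y axes) of *Twist2*, *Fst*, *Nbl1*, *Sema3c*, *a* and *Cpxm2* in all mesenchyme cells thinned to 3000 UMIs, by the number of class genes still detected after thinning (x axes), for the control (blue) and the mutant (orange), with 95% Poisson intervals. In both libraries *Twist2* climbs from 52.9 and 46.3 CPM with 0 class genes to 360 and 249 CPM with 3, and the points at 4 rest on 13 control and 19 mutant cells.

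Between the libraries, of 9699 genes with 100 or more UMIs in the class, 9 (0.0928%) were past 2-fold higher in the mutant and 19 (0.196%) past 2-fold lower, and 8272 (85.3%) lay within 1.2-fold. These counts changed with the cells used: 17 higher and 8 lower among male cells, 10 lower without cells over 20000 UMIs, 8 lower with 3 class genes asked for, 4 lower among female cells and 2 lower with the rule on thinned cells. The median log2 ratio of mutant over control was -0.042 in the class and -0.049 in other mesenchyme. The class genes, on which the cells were selected in both libraries, are given as a description. *Tfap2b* had a log2 ratio of -0.042 (-0.11 to 0.023), *Ddit4l* of 0.058 (-0.042 to 0.16), *Tmem132c* of 0.034 (-0.074 to 0.14) and *Matn4* of 0.35 (0.23 to 0.48). Of genes outside the rule, *Twist2* had a log2 ratio of 0.034 (-0.063 to 0.13) and *Fst* of 0.15 (0.093 to 0.22) and *a* of 0.29 (0.15 to 0.43), intervals that cover counting error and not the difference between pools of embryos.

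*Myrf*, the gene deleted in the mutant, had few UMIs in the class. It stood at 2.50 CPM in the control (23 UMIs) and 3.48 CPM in the mutant (40 UMIs), a log2 ratio of 0.45 (-0.30 to 1.29). In thinned cells 0.656% of control and 1.39% of mutant class cells had a UMI, against 0.409% and 0% of retinal progenitor cells and 0.543% (0.0138 to 2.99) and 0% of red blood cells, which should lack it. The intervals were 0.179 to 1.67 for the control class and 0.694 to 2.47 for the mutant class. In other mesenchyme the levels were 3.19 and 1.72 CPM, so that class over other mesenchyme gave log2 ratios of -0.32 (control, -1.15 to 0.41) and 1.01 (mutant, 0.29 to 1.77). As the *Rx* promoter drives Cre in the eye field, the level of *Myrf* in mesenchyme does not check the genotype labels.

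Among the 9 genes past 2-fold higher in the mutant, 5 were haemoglobin genes. The 10 red blood cell genes together stood at 2540 CPM in the control and 12700 CPM in the mutant class, and at 2440 and 10400 CPM in other mesenchyme, and 322 control and 758 mutant class cells had 5 or more UMIs of them. In the control, 1 cell held 84.9% of these UMIs, against 17.2% in the mutant. Other mesenchyme did not move as a whole. From control to mutant the sum was higher in the Aldh1a2 class (342 and 12600 CPM) and in the unclassed cells (2210 and 12700 CPM). In the tendon class it was lower (5880 and 901 CPM). The other 4 genes were *Gm4737*, *Wdfy1*, *B930036N10Rik* and *Xlr3b*, and the part of free red blood cell RNA in any of them was not tested.

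*Wdfy1*, an endosomal adaptor gene, stood at 4.67 CPM in the control class (43 UMIs) and 30.8 CPM in the mutant class (354 UMIs). Its log2 ratio was 2.69 (2.26 to 3.21), against 2.35 in other mesenchyme. *Gm4737*, counted 21 times in the control class and 208 times in the mutant, had a ratio of 2.93 (2.34 to 3.71), against 3.17 in other mesenchyme. *Xlr3b*, an X-linked gene with near-identical copies beside it, so that its counts are uncertain, had a log2 ratio of 1.02 against 1.32 in other mesenchyme. *B930036N10Rik* stood at 3.80 and 8.79 CPM in the class (log2 ratio 1.18) and at 8.75 and 4.35 CPM in other mesenchyme, the reverse order.

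The next genes in order did not reach 2-fold. *Rab26os*, *AC149090.1*, *Dusp1*, *Pop4*, *Sp5* and *Zfp420* had log2 ratios from 0.78 to 0.94. *Sp5*, a Wnt target gene, had 38 and 83 UMIs in the class, a ratio of 0.79, against -0.27 in other mesenchyme. Its ratio in the class turned to -0.41 among female cells. None of 32 Wnt genes with 50 or more UMIs in the class was past 2-fold between libraries. Over all genes at that minimum 0.217% were past 2-fold higher and 0.515% lower, so 0 of 32 is near that share.

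The lowest genes in the mutant were macrophage genes held by a few cells. *Pf4*, a chemokine gene of platelets and macrophages, had 121 UMIs in the control class and 4 in the mutant (log2 ratio -4.93), and 77.7% of the control UMIs lay in 1 cell. *C1qb*, a complement gene of macrophages, had 95 and 9 UMIs (log2 ratio -3.58), with 74.7% in 1 cell. In the summed other mesenchyme both ratios had the opposite sign, 0.55 and 4.63. The 10 macrophage genes summed to 42.6 CPM in the control and 5.48 CPM in the mutant class and to 7.04 and 62.3 CPM in other mesenchyme, and only 3 control and 2 mutant class cells had 5 or more UMIs of them. Without the cell with most UMIs of the gene in each library, an alternative chosen after seeing the data, the ratios were -4.13 for *Pf4* and -3.38 for *C1qb*, on 27 and 24 control UMIs. Both signs turned among female cells (1.07 and 0.072), and that of *C1qb* also when cells over 20000 UMIs were left out (1.41) or 3 class genes were asked for (1.32).

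Pigment cell and eye field genes were also among the 19. The 10 RPE genes summed to 71.2 CPM in the control and 28.5 CPM in the mutant class, and to 94.6 and 64.3 CPM in other mesenchyme. *Dct*, a melanin synthesis gene, had 159 and 44 UMIs in the class (log2 ratio -2.15, against -0.14 in other mesenchyme), 64.2% of the control UMIs lay in 1 cell, and without the top cells the ratio was -1.18. *Pmel*, the gene of a melanosome protein, had 235 and 110 UMIs (-1.41, against -0.63 in other mesenchyme). *Vax2*, a homeobox gene of the ventral optic cup, had a ratio of -1.28 and the overlapping antisense gene *Vax2os* of -1.87, against -0.25 and 0.28 in other mesenchyme, with 30.1% and 28.0% of the control UMIs in 1 cell, and whether reads were counted by strand is not given in the sources used here. The sign of *Vax2* turned without cells over 20000 UMIs (0.089), among female cells (0.49) and with the rule applied to thinned cells (0.80), where *Vax2os* stood at 0.0039. Of the 19 lower genes, 8 had over 25% of their control UMIs in 1 cell. The part that RPE or retinal RNA had in these ratios was not tested.

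The 19 also held genes of other kinds. *Eif3j2*, the gene of a translation initiation factor subunit with a near-identical copy elsewhere in the genome, so that its counts are uncertain, had 238 control and 41 mutant UMIs in the class, a log2 ratio of -2.83, against -2.31 in other mesenchyme, and 1.68% of its control UMIs lay in 1 cell. *Gm26870* had a ratio of -1.50 against -1.63, with 23.3% of its control UMIs in 1 cell, and *Hmga1*, which encodes a chromatin protein and has a close copy, of -1.27 against -0.99. *Lgi1*, which encodes a secreted neuronal protein, had a ratio of -1.70 against -0.51, with 30.7% in 1 cell. *Jag1*, the gene of a Notch ligand, chosen for mention after its values were seen, had 229 and 135 UMIs (24.9 and 11.7 CPM), a ratio of -1.08 against -0.64.

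**Figure D5:**
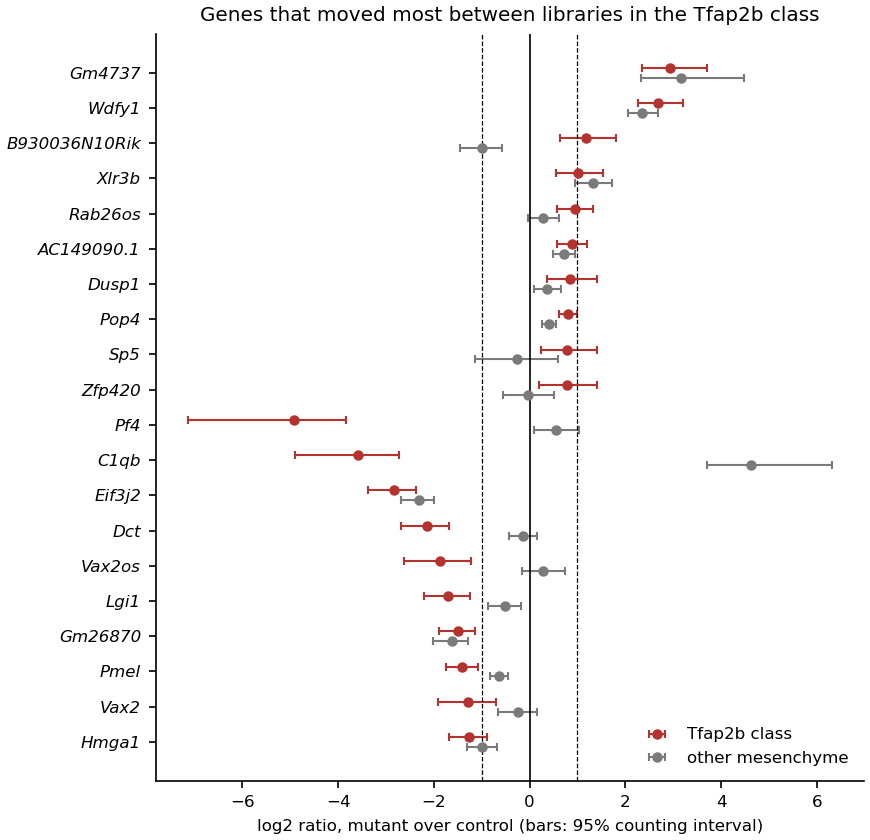
Log2 ratio of mutant over control (x axis) for the 10 genes highest and the 10 lowest in the mutant within the Tfap2b class (red), with the same ratio in other mesenchyme (grey), 95% counting intervals as bars and dashed lines at 2-fold. *Gm4737*, *Wdfy1*, *Eif3j2* and *Gm26870* move alike in both, while *B930036N10Rik*, *Pf4* and *C1qb* lie on opposite sides of 0.

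Lists were counted between the libraries too. At 50 or more UMIs in the class, 24 of 11066 genes (0.217%) were past 2-fold higher in the mutant and 57 (0.515%) past 2-fold lower, with a median log2 ratio of -0.045. None of 32 Wnt genes, 26 collagens, 42 matrix genes, 9 hedgehog genes or 44 S phase genes passed 2-fold in either direction. Of 53 transcription factors, *Shox2* was past 2-fold higher, and of 37 TGF beta and BMP genes *Sostdc1*. Single members of other pathway and gene family lists were past 2-fold lower, namely *Aldh1a3* among 17 retinoic acid genes, *Igfbp7* among 13 insulin-like growth factor genes, *Itga4* among 22 adhesion genes, *Sesn2* among 12 p53 targets and *Junb* among 19 dissociation genes. In lists of other cell types, all 5 measured macrophage genes (median -3.17, against 4.09 in other mesenchyme) and 3 of 5 RPE genes (*Dct*, *Pmel* and *Trpm1*, median -1.20) were past 2-fold lower, and 6 of 8 red blood cell genes past 2-fold higher (median 2.37, against 2.00). *Ednrb* of the melanoblast list, *Cldn5* of the endothelial list and *Mcam* of the pericyte list were past 2-fold lower as well. *Aldh1a3*, which encodes a retinoic acid synthesising enzyme of the retina and RPE, had 148 and 78 UMIs and a ratio of -1.23 against -0.14 in other mesenchyme, with 36.5% of the control UMIs in 1 cell.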

How the data were processed

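The libraries were made with the 10x Genomics platform from eyecups at embryonic day 13.5. The authors deposited UMI counts per gene and barcode in 2 matrices, not normalized, and the submitters' processing notes name Cell Ranger 7.1.0, Seurat 4.1.1 and the build mm10. The share of intronic reads counted is not given in the sources used here. Groups were taken from the sample labels, 1 library per genotype, so no test was run and no p-value is given.

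Barcodes were kept with 200 or more genes and at most 15% mitochondrial UMIs. An upper limit of 2000 UMIs per cell, stated in the study's methods, leaves few mesenchyme cells and was run only as an alternative. Doublets were marked with Scrublet (scanpy 1.11.5, 5% expected) and kept in the main values. Per library and class, the UMIs of each gene were added up and scaled to CPM. Log2 ratios had 1 UMI added to each sum, with exact conditional binomial intervals, shares have Clopper-Pearson and differences of shares Newcombe intervals. UMI counts are of captured molecules, and all intervals cover counting error only. For shares across depths each cell was thinned to 3000 UMIs, and 2 control and 5 mutant cells of the class were too shallow. Retinal progenitor cells (3 or more of 5 retinal genes and fewer than 2 mesenchyme genes) and red blood cells (20% or more of UMIs in red blood cell genes) served as background.

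Genes were named by rule: the 18 genes of the cell rule, *Twist2* and *Myrf*; the 16 highest and 10 lowest ratios of class over other mesenchyme, ranked by the less extreme library; the 10 highest and 10 lowest ratios of mutant over control in the class; and of each list the most abundant member, those of largest and smallest ratio, and transcription factors past 2-fold. The ranked sets leave out genes of the Y chromosome, *Xist*, *Tsix*, haemoglobins, ribosomal proteins and mitochondria. A further gene is said to be chosen after its values were seen, and members of lists past 2-fold are also named. Some genes that meet these rules are not reported here. The members of the class and all gene lists were chosen with earlier results of these data known. The ratio was tested on simulated data. Analyses used Python 3.11.15, numpy 2.4.6, scipy 1.17.1 and pandas 2.3.3. Alternatives changed the doublet, mitochondrial and UMI limits, the cell rule, the sex of the cells, the genes summed, the weighting of cells, the gene minimum, the denominator and the cycle threshold.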

Additional observations from a re-analysis of the deposited data

Results flagged for a closer look

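In the Tfap2b class 3 genes named for their ratio between libraries moved one way. In the summed other mesenchyme of the same libraries they moved the opposite way, with both counting intervals clear of 0. *B930036N10Rik* had a log2 ratio of mutant over control of 1.18 in the class, while in other mesenchyme it stood at 8.75 CPM in the control and 4.35 CPM in the mutant. *Pf4* had -4.93 in the class and 0.55 in other mesenchyme, and *C1qb* had -3.58 and 4.63. With 1 library per genotype, the difference between the classes was not tested for any of these genes. The UMIs of *Pf4* came from 8 control and 2 mutant class cells, and those of *C1qb* from 5 and 3. In other mesenchyme *Pf4* had 61 and 109 UMIs, in 1.94% and 1.51% of cells. *C1qb* had 6 and 209 UMIs there, in 0.538% and 1.17% of cells, and 126 of the mutant UMIs lay in the tendon class. In the Aldh1a2 class alone, 2 of the 3 genes moved as in the Tfap2b class. These were *B930036N10Rik*, at 1.95 and 4.30 CPM, and *Pf4*, at 14.0 and 9.26 CPM.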

How the results depend on the processing

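No paired analysis was possible because each genotype was 1 library. With the upper limit of 2000 UMIs, which left 2 class cells in each library, the shares of mesenchyme were 10.5% and 14.3% (difference 3.76 points), and the counts past 2-fold were 1 higher and 9 lower against other mesenchyme and 0 and 0 between libraries. With 20000 UMIs, 10 genes were lower in the mutant, *C1qb* turned to 1.41 and *Vax2* to 0.089. Asking for 3 class genes gave shares of 25.8% and 28.1%, 8 genes lower in the mutant and 1.32 for *C1qb*. Asking for all 6 mesenchyme genes gave 42.8% and 43.8%, 149 genes lower in the class and 9 lower in the mutant. Allowing no gene of the other sets gave 17.5% and 19.6%, 62 genes higher in the class and 11 lower in the mutant. The rule on thinned cells gave 25.6% and 30.2% (difference 4.61 points), 58 genes higher and 126 lower in the class and 2 lower in the mutant, with *Vax2os* at 0.0039 and *Vax2* at 0.80. Female cells gave 33.2% in the control (difference 7.81 points), 38 genes higher and 89 lower in the class and 4 lower in the mutant, with *Sp5* at -0.41, *Pf4* at 1.07, *C1qb* at 0.072 and *Vax2* at 0.49. Male cells gave 47.5% in the control (difference -7.27 points), and 17 genes higher and 8 lower in the mutant. Leaving haemoglobin, ribosomal protein and mitochondrial genes out of the sums left 4 genes higher in the mutant. A minimum of 50 UMIs gave 24 and 57 genes between libraries, kept cells as denominator gave 11.1% and 12.5%, and a threshold of 3 UMIs gave S phase shares of 86.1% and 85.9% and G2/M shares of 87.5% and 84.5%. Leaving out the cell with most UMIs of each gene, an alternative chosen after seeing the data, left 12 genes lower in the mutant. The causes were not tested. For named genes, each case counted here is 1 ratio under 1 alternative. Ratios of class over other mesenchyme moved by less than their interval in 233 cases and by more in 70, with no reversal. Ratios of mutant over control did so in 202 and 53 cases, with 9 reversals. Among the headline results, counted apart from these ratios, 47 cases stayed the same and 44 moved. Genes with few UMIs, such as *Myrf* and *Nts* in the class, are limited by depth.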
